A study of Mus musculus with 27 samples.

Results

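The 9 organoid libraries and the 3 m-ICc12 libraries whose deposited data carry no T in their names were compared with each other gene by gene, 12 of the 27 libraries of the series. The series measured polyA-selected RNA in mouse intestinal epithelial organoids, m-ICc12 cells and mouse embryonic fibroblasts (MEF), with and without tumour necrosis factor (TNF, 5 ng/ml for 8 h). Organoids were grown from distal jejunal crypts of 3 male C57BL/6J wild-type mice from each of 3 facilities, 2 of them specific pathogen-free with unlike microbiotas (SPF_SR and SPF_SE, here SR and SE) and 1 germ-free (GF). The mice of a facility were cohoused littermates, and the organoids had been passaged in IntestiCult medium in Matrigel. m-ICc12 is 1 immortalised mouse small intestinal epithelial line, represented by 3 cultures grown in DMEM/F12 with insulin, dexamethasone, selenite, transferrin, triiodothyronine, epidermal growth factor and fetal calf serum. Cell type, medium, growth format and the number of donors thus changed together between the groups and cannot be told apart.

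The treatment label of these 12 libraries needs care. GEO's labels call all of them TNF-treated, whereas the names of their data lack the T that the partner libraries carry. The 5 genes chosen as known targets of nuclear factor kappa B (NF-kB), which TNF activates, were lower in these libraries than in the partner labelled untreated, each in 12 of 12 cultures. Nfkbia, the inhibitor of NF-kB, lay at 23.6 to 36.4 normalised counts (CPM, scaled to library size) in the 9 organoid libraries compared and at 148 to 227 CPM in their partners. In the 3 m-ICc12 libraries it lay at 14.6 to 22.1 CPM, against 69.1 to 114 CPM in theirs. The libraries are called here by their label, labelled TNF-treated, although these genes went against it. The label is the same on both sides of the comparison, and the other 12 libraries served as an alternative.

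A small intestinal organoid holds a self-renewing crypt compartment with Lgr5+ stem cells and Paneth cells, and a differentiated compartment of absorptive enterocytes, goblet, enteroendocrine and tuft cells. Wnt and Notch signals keep the stem cells, while transcription factors such as CDX2 and HNF4A drive intestinal genes. Adherens junctions, built on E-cadherin, tie epithelial cells together. The Hippo pathway restrains YAP and TAZ, which are co-activators that act through TEAD factors on genes of spreading, growth and repair.

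The organoid libraries held 11440041 to 35283218 counts and the m-ICc12 libraries 6071103, 36135139 and 20305584 counts in replicates 1, 2 and 3, the order in which m-ICc12 values are given throughout. Pearson correlations of log2 CPM were 0.934 to 0.975 between organoid libraries, 0.939 to 0.976 between m-ICc12 libraries and 0.532 to 0.584 between the groups. Lars2, a mitochondrial leucyl-tRNA synthetase gene, took 13.5%, 0.158% and 4.44% of the m-ICc12 counts, against 0.111% to 0.552% in the organoids and 0.115% to 0.153% in the partner m-ICc12 libraries. Leaving it out, an alternative chosen after seeing the data, kept 7672 of the 7682 calls. Replicate 1 also stood apart in the residue of organoid genes: the median of 132 organoid-high genes there was 0.719% of the organoid mean, against 0.240% and 0.172% in replicates 2 and 3. The same median was 0.2315%, 0.2589% and 0.0826% in the partner m-ICc12 libraries, and 0.143%, 0.144% and 0.223% in the 3 MEF libraries. The part of that residue in the results was not tested. Because fold changes of such genes depend on it, the 3 values are printed for most of them.

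The marker genes separated the groups in both directions. Cdh1, which encodes E-cadherin, lay at 878 to 1055 CPM (median 1004) in the organoid libraries and at 6.78, 1.92 and 1.29 CPM in m-ICc12, a log2 fold change of 8.6 ± 0.38 (SE, adjusted p = 2.21e-12). Hopx, a homeodomain protein gene of crypt cells, lay at 147 to 199 CPM (median 169.7) and 1.39, 0.426 and 0.239 CPM (log2 fold change 8.48 ± 0.29, adjusted p = 1.17e-13). Gpa33, an intestinal surface antigen gene, lay at 323 to 415 CPM (median 357) and 2.61, 0.718 and 0.814 CPM (log2 fold change 8.48 ± 0.27, adjusted p = 6.15e-14). The organoid and m-ICc12 ranges were far apart for each. Wwtr1, which encodes TAZ, went the other way, at 0.119 to 0.985 CPM (median 0.27) in the organoids and 165, 148 and 169 CPM in m-ICc12 (log2 fold change -8.81 ± 0.32, adjusted p = 2.23e-13). Havcr1, the kidney injury molecule gene, was nearly undetected in the organoids, at 0 to 0.508 CPM (median 0.0469), and lay at 63.7, 123 and 121 CPM in m-ICc12 (log2 fold change -9.65 ± 0.50, adjusted p = 2.09e-11). Log2 fold changes (log2 FC) are organoid over m-ICc12, positive where organoids were higher, with adjusted p-values from edgeR's quasi-likelihood test over all genes, 9 against 3 libraries. Where no library of the lower group held more than 3 counts, the levels and the adjusted p are given without a log2 FC. A bound on the fold is added for some genes at 0. Exceptions are the log2 FC of Dclk1 and that of mt-Nd3 with GF organoids alone, which rest on few counts. Of the genes named here as higher or lower, the groups overlapped for Ciita, Col1a1, Dock5, Hoxb9, Lars2, Nnt and Pck1 and did not for the others. Over all genes tested, 53.4% did not overlap.

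**Figure D1:**
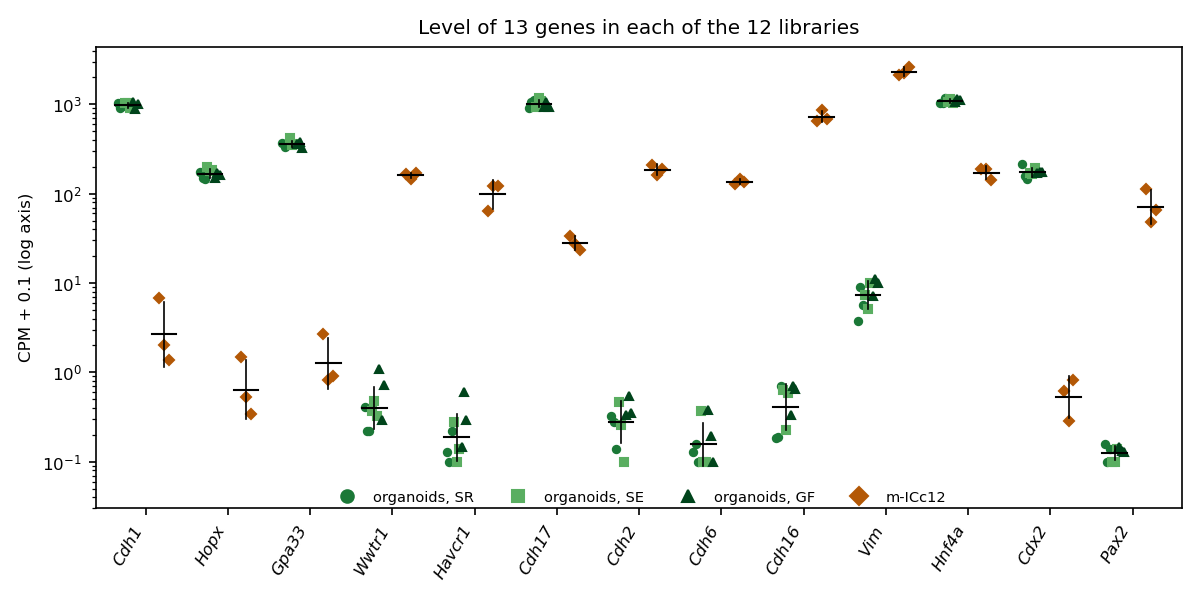
Level of 13 genes in each library, as CPM with 0.1 added on a log axis, with organoid symbols by facility, diamonds for m-ICc12, and black bars for the mean and SD on the log scale. The 9 organoid libraries lie together and apart from the 3 m-ICc12 libraries for each of the 5 markers. These markers were chosen with earlier results of these data known. Hnf4a differs least among the genes drawn.

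A total of 12826 genes were above background, reaching 10 counts in 50% or more of the organoid or of the m-ICc12 libraries. Calls combined a Benjamini-Hochberg adjusted p below 0.05 with an absolute log2 FC of 0.5 or more. By this rule 4030 genes (31.4%) were higher and 3652 (28.5%) lower in organoids, and 1594 (12.4%) and 1224 (9.54%) differed at least 8-fold. The median log2 fold change over all genes was 0.05, and the 10th and 90th percentiles were -2.88 and 5.16. The groups did not overlap for 6845 genes (53.4%), so a lack of overlap is common in this comparison. A gene with at most 3 counts in every library of a group passed the filter through the other group, so its direction was set by the filter. This holds for the list members said below to be set at 3 counts. It also holds for some members of other lists, among them 41 of the 252 solute carriers and 7 of the 42 growth factor genes. Large folds often rest on few counts in the lower group. In 877 of the 1594 genes 8-fold higher, no m-ICc12 library held more than 3 counts, and 347 of the 1594 fall under 8-fold when m-ICc12 is set at 3 counts per library. The same limits held for 282 and 44 of the 1224 genes 8-fold lower. The genes 8-fold higher took 10.6% of the organoid counts and 0.296% of the m-ICc12 counts, and those 8-fold lower took 0.550% and 16.0%.

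The genes of highest CPM among those 8-fold apart belonged to digestion on one side and to matrix, cytoskeleton and redox defence on the other. Higher in organoids was Lgals4, galectin 4 of the brush border (2338 to 3018 CPM, median 2594, against 20.2, 11.7 and 5.65 CPM, log2 FC 7.79, adjusted p = 1.76e-12). The disaccharidase Sis lay at 937 to 3592 CPM (median 1699) in organoids, a range of several-fold, and at 16.5, 4.68 and 5.26 CPM in m-ICc12 (log2 FC 8.1, adjusted p = 4.16e-09). Pigr, the receptor that carries IgA through the epithelium, lay at 1621 to 2082 CPM (median 1955) and 17.7, 6.07 and 2.44 CPM (log2 FC 8.01, adjusted p = 1.04e-10). In the other direction stood Gpx3, a secreted glutathione peroxidase, at 0.171 to 4.57 CPM (median 1.87) in organoids and 3063, 3163 and 2969.5 CPM in m-ICc12 (log2 FC -10.66, adjusted p = 1.22e-12). Vim, the vimentin gene, lay at 3.7 to 10.9 CPM (median 7.21) and 2118, 2271 and 2621 CPM (log2 FC -8.26, adjusted p = 1.95e-14). Spp1, or osteopontin, lay at 0.427 to 3.37 CPM (median 1.27) and 1717, 2536 and 2232 CPM (log2 FC -10.62, adjusted p = 2.83e-13), and Lgals1, galectin 1, at 3.13 to 8.95 CPM (median 4.41) and 830.4, 1461 and 1416 CPM (log2 FC -7.92, adjusted p = 2.79e-14).

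**Figure D2:**
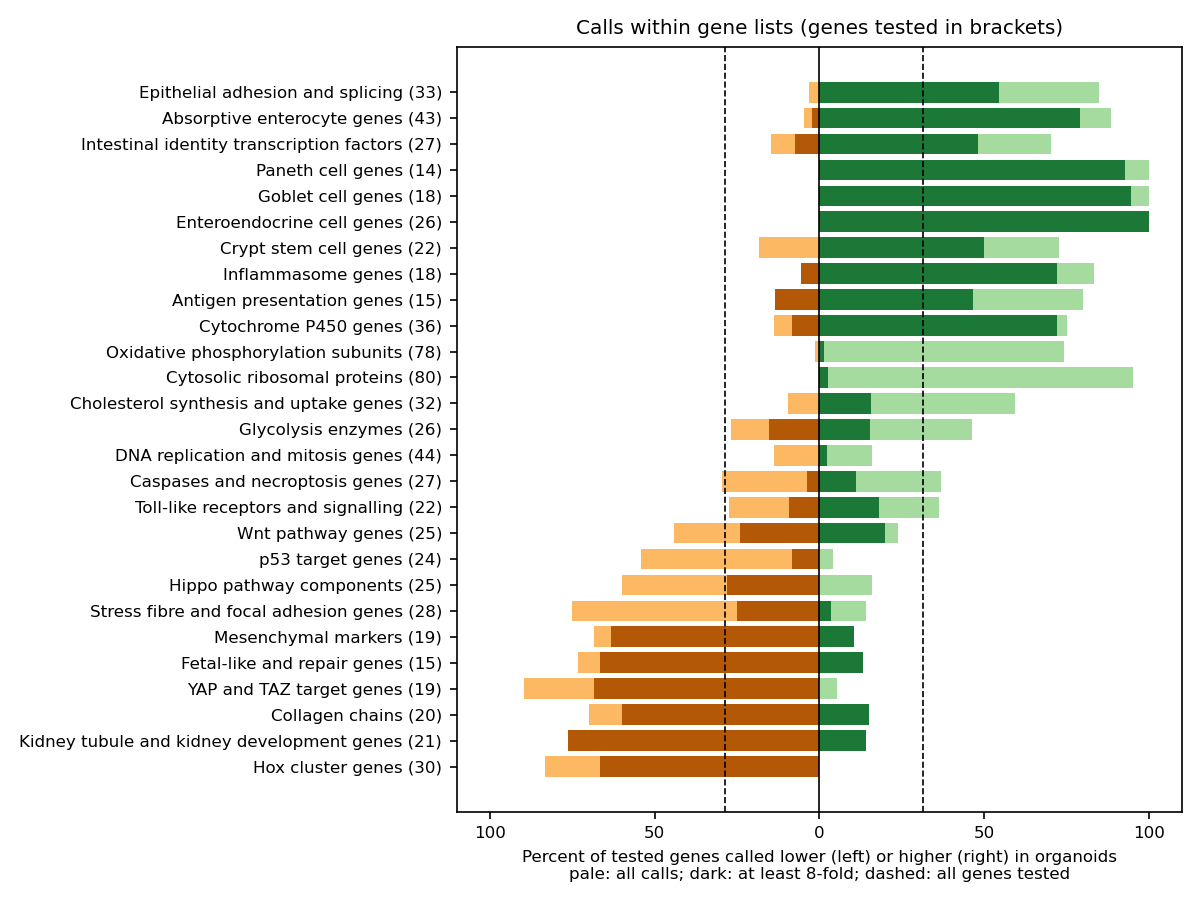
Percent of the tested genes of 27 functional lists called lower (left) and higher (right) in organoids, with pale bars for all calls and dark bars for calls of at least 8-fold, and dashed lines at the 28.5% and 31.4% of all genes. Enteroendocrine, goblet and Paneth genes lie wholly on the right, and YAP and TAZ targets and Hox genes almost wholly on the left.

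The list of epithelial adhesion and splicing genes leaned to the organoids: 28 of 33 were higher and 1 lower, with a median log2 fold change of 3.57. Epcam, an epithelial adhesion molecule, lay at 916 to 1136 CPM (median 995) in organoids and 7.13, 5.0 and 3.35 CPM in m-ICc12 (log2 FC 7.69, adjusted p = 1.25e-14). Esrp1, the epithelial splicing regulator, lay at 156 to 236 CPM (median 194) and 1.39, 0.452 and 0.191 CPM (log2 FC 8.64, adjusted p = 2.55e-13). The desmosomal cadherin Dsc2 differed likewise (192 to 228 CPM, median 211, against 1.22, 0.559 and 0.239 CPM, log2 FC 8.66, adjusted p = 1.43e-14). Ovol2, a repressor of mesenchymal genes, held no count in m-ICc12 and 5.58 to 12 CPM (median 8.01) in organoids, at least 33.1-fold higher (adjusted p = 4.87e-08). The exception was Tjp1, the tight junction scaffold ZO-1, which was lower in organoids (70.5 to 117 CPM, median 87.4, against 388, 287 and 336 CPM, log2 FC -1.91, adjusted p = 5.46e-10). Desmoplakin (Dsp) lay at 431 to 649 CPM (median 489.6) and 555, 424 and 505 CPM and was not called (log2 FC 0.05, adjusted p = 0.736). Summed over the list, organoids held 10460 to 11590 CPM and m-ICc12 2405, 2345 and 2328 CPM.

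Cadherins, claudins and keratins differed member by member. Beside Cdh1, Cdh17, the liver-intestine cadherin, was higher in organoids (915 to 1177 CPM, median 1053, against 33.4, 27.4 and 23.4 CPM, log2 FC 5.21, adjusted p = 3.00e-14). N-cadherin (Cdh2) lay at 0 to 0.445 CPM (median 0.228) in organoids and 210, 159.7 and 189 CPM in m-ICc12 (log2 FC -9.79, adjusted p = 3.00e-14). Cdh16, the kidney-specific cadherin, lay at 0.0854 to 0.603 CPM (median 0.487) and 659, 862 and 681 CPM (log2 FC -11.01, adjusted p = 7.25e-15), and Cdh6 at 0 to 0.282 CPM (median 0.0285) and 127, 147 and 136 CPM (log2 FC -11.03, adjusted p = 2.70e-13). No organoid library overlapped m-ICc12 for these 4 cadherins, as was so for 53.4% of all genes tested. Among 10 claudins, the seals of tight junctions, 5 were higher (50%) and 3 lower (30%), against 31.4% and 28.5% of all genes. Cldn7 (474 to 654 CPM, median 512, against 2.96, 1.01 and 0.622 CPM, log2 FC 8.86, adjusted p = 1.19e-13), Cldn15 (log2 FC 8.75, adjusted p = 1.50e-12) and Cldn3 (log2 FC 8.47, adjusted p = 2.10e-13) were higher in organoids, and Cldn8 was at 14.2 to 36.1 CPM (median 23.1) in organoids and 0 in m-ICc12, at least 92-fold higher (adjusted p = 1.29e-09). Cldn1 lay at 0 to 0.159 CPM (median 0.0374) in organoids and 109, 134 and 139 CPM in m-ICc12 (log2 FC -10.95, adjusted p = 7.12e-15). The pore-forming Cldn2 overlapped, at 182 to 314 CPM (median 264) and 299, 292 and 205 CPM (log2 FC -0.07, adjusted p = 0.701), and was not called. Of 16 keratins 7 were higher (43.75%) and 6 lower (37.5%). Leaving out m-ICc12 replicate 1, 2 or 3 left 4 higher each time. For 7 of the 16, no library of 1 group held more than 3 counts, so the filter set their direction. Krt19 lay at 1154 to 1481 CPM (median 1319.5) and 9.05, 2.77 and 2.39 CPM (log2 FC 8.39, adjusted p = 1.28e-12). Krt18, another simple-epithelial keratin gene, was not called (log2 FC 0.16, adjusted p = 0.373). Krt20, of differentiated villus cells, was lower in organoids (77.2 to 263 CPM, median 158, against 479, 699.9 and 616 CPM, log2 FC -1.94, adjusted p = 3.35e-06).

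Mesenchymal markers moved opposite to the epithelial list, with 13 of 19 lower and 2 higher in organoids and a median of -3.66 (-5.08 without m-ICc12 replicate 3, and -2.41 with all 27 libraries in the fit). Fibronectin (Fn1) lay at 0.992 to 5.16 CPM (median 1.52) in organoids and 782, 767 and 873 CPM in m-ICc12 (log2 FC -8.51, adjusted p = 9.80e-14). Sparc, a matrix glycoprotein gene, lay at 0.422 to 4.21 CPM (median 1.19) and 492, 692 and 614 CPM (log2 FC -8.58, adjusted p = 1.05e-12). Zeb1, a repressor of Cdh1, lay at 0 to 0.0902 CPM (median 0.0398) and 34.6, 24.7 and 24.9 CPM (adjusted p = 7.29e-12). These 3 genes did not overlap, as was so for 53.4% of all genes tested. The 2 higher genes were Pdgfrb (4.16 to 10.5 CPM, median 7.0, against 0.348, 0 and 0.0957 CPM, adjusted p = 3.48e-06) and Tgfbi (1.28 to 11.7 CPM, median 6.05, against 0, 0 and 0.0479 CPM, adjusted p = 2.88e-06), both with 2 counts or fewer in each m-ICc12 library. Fibroblast collagens were near background in both systems: Col1a1, Col1a2 and Col5a2 together gave 0.453 to 8.80 CPM in organoids and 19.7, 4.02 and 4.28 CPM in m-ICc12, against 4735 to 6556 CPM in the 3 MEF libraries. Of 23 markers of other cell types 7 passed background. Of these, 3 were lower (42.9%), 2 higher (28.6%) and 2 not called, against 28.5% lower and 31.4% higher of all genes. Among the lower ones, the endothelial receptor gene Kdr was at 0 in every organoid library and at 6.26, 7.5 and 7.42 CPM in m-ICc12. It was at least 58.2-fold lower in organoids, a direction set by the filter.

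Transcription factors of intestinal identity differed member by member. Of 27 tested, 19 were higher, 4 lower and 4 not called, with a median of 2.69. Without m-ICc12 replicate 3 the median was 5.67, with 20 higher and 4 lower, and it was 4.24 after thinning to the smallest library and 3.93 with GF organoids alone. Cdx2, the caudal factor that specifies intestine, lay at 145 to 215 CPM (median 171) in organoids and 0.522, 0.186 and 0.718 CPM in m-ICc12 (log2 FC 8.73, adjusted p = 9.74e-14). Cdx1 lay at 358 to 480 CPM (median 391) and 2.96, 0.958 and 0.383 CPM (log2 FC 8.61, adjusted p = 8.26e-13). The line is described as small intestinal, yet both Cdx genes were below 3 CPM in each of its libraries. Gata4, of proximal intestine, lay at 48 to 93.2 CPM (median 77.1) and 0.348, 0.16 and 0 CPM (log2 FC 9.17, adjusted p = 3.93e-12). Hnf4g lay at 38.2 to 96.2 CPM (median 63.3) and 0.87, 0.0532 and 0.144 CPM (log2 FC 8.58, adjusted p = 4.65e-10), while its paralog Hnf4a was well expressed in both, at 1022 to 1171 CPM (median 1072) and 189, 189 and 141 CPM (log2 fold change 2.66 ± 0.12, adjusted p = 3.22e-12). Lower in organoids were Maf (1.08 to 13.5 CPM, median 6.35, against 230.2, 137 and 138 CPM, log2 FC -4.55, adjusted p = 7.35e-09) and Tfcp2l1 (8.62 to 31.8 CPM, median 19.3, against 312, 194 and 209 CPM, log2 FC -3.57, adjusted p = 3.62e-09). Klf4 (log2 FC -0.12, adjusted p = 0.514) and Tcf7l2 (log2 FC 0.30, adjusted p = 0.17), an effector of Wnt signals, were not called.

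Absorptive enterocyte genes were mostly higher in organoids: 38 of 43, with 2 lower and a median of 6.66, or 6.14 with 6 genes near 0 in m-ICc12 set at 3 counts per library. The genes do the work of the brush border and of lipid export. Apob, the scaffold of chylomicrons, lay at 268 to 732 CPM (median 446) in organoids and 2.26, 1.04 and 0.479 CPM in m-ICc12 (log2 FC 8.84, adjusted p = 8.61e-11). The glucose carrier Slc5a1 lay at 384 to 1077 CPM (median 589) and 5.05, 1.73 and 1.29 CPM (log2 FC 8.42, adjusted p = 3.09e-10). Vil1, the microvillus actin bundler, kept a low level in m-ICc12 (568 to 1015 CPM, median 711, against 27.5, 39.4 and 30.7 CPM, log2 FC 4.53, adjusted p = 5.88e-12). Lct, the lactase gene, lay at 18.5 to 290.5 CPM (median 68.2) and 0.87, 0.293 and 0.479 CPM (log2 FC 8.22, adjusted p = 2.17e-05). Going against the list, Mme, the neprilysin gene, was lower in organoids (8.66 to 49.7 CPM, median 24.4, against 367, 286 and 312 CPM, log2 FC -3.64, adjusted p = 2.28e-07). Dgat2 (log2 FC -0.17, adjusted p = 0.39) and Amn (log2 FC 0.46, adjusted p = 0.154) were not called. The list's sum varied among organoids from 5594 CPM in GF919 to 15710 CPM in GF918, and was 1278, 1378 and 1235 CPM in m-ICc12.

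Promoters of 3 of these genes are shown because HNF4A, whose gene was expressed in both systems, is known to act on enterocyte genes and they hold its motif. The windows run from 250 bases before to 50 bases after the start site in RefSeq (GRCm38.p6), with CAAAGTNCA, or TGNACTTTG on the other strand, in capitals. Alpi (chr1:87101557-87101856, minus strand), intestinal alkaline phosphatase, has it 19 bases before the start. Apoa4 (chr9:46240594-46240893, plus strand), an apolipoprotein of chylomicrons, has it 182 bases before the start. Fabp2 (chr3:122894822-122895121, plus strand), the intestinal fatty acid binding protein, has it 137 bases before the start.
Alpi: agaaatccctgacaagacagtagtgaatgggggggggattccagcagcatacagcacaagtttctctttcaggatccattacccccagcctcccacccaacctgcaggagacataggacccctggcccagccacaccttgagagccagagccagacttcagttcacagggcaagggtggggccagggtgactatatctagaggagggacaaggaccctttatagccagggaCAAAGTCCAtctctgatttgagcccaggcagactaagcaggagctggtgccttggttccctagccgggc
Apoa4: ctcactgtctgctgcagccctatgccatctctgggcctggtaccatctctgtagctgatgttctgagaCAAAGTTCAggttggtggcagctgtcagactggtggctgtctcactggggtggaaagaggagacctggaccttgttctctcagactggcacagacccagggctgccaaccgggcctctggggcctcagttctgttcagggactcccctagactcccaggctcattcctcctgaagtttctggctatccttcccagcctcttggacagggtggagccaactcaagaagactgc
Fabp2: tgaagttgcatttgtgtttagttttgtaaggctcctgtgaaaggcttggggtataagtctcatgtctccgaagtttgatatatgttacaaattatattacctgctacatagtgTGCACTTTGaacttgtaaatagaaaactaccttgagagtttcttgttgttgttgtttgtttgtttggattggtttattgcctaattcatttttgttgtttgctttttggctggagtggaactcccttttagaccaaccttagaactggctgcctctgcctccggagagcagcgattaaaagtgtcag

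These 3 genes were higher in organoids. Alpi lay at 6.21 to 98.9 CPM (median 22.2) and 0.174, 0.0532 and 0.0479 CPM (adjusted p = 1.29e-05), Apoa4 at 133 to 695 CPM (median 214) and 2.78, 0.825 and 0.287 CPM (log2 FC 8.61, adjusted p = 1.50e-07) and Fabp2 at 105 to 404 CPM (median 156) and 2.44, 0.452 and 0.67 CPM (log2 FC 8.14, adjusted p = 2.89e-08). No m-ICc12 library reached the lowest organoid library for any of them, and 53.4% of all genes tested did not overlap. The motif was found in 1.64% of all 27025 promoters with an entry and in 1.53% of the 9989 tested genes matched. Its share was 4.31% of 1182 promoters of genes 8-fold higher, 1.12% of 896 of genes 8-fold lower and 1.10% of genes not called. Among enterocyte genes 6 of 37 promoters held it. A match of letters is a description and not a binding site.

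Most genes of the secretory lineages were at or near 0 in m-ICc12. Among the exceptions were Galnt12, a mucin glycosyltransferase gene of the goblet list (16 to 36.8 CPM, median 29.7, against 9.39, 13.3 and 5.79 CPM, log2 FC 1.53, adjusted p = 2.34e-04), and Nupr1, a stress response gene of the Paneth list (25.7 to 70.8 CPM, median 40.8, against 8.18, 11.7 and 10.3 CPM, log2 FC 2.16, adjusted p = 3.16e-05). All 18 tested goblet genes, all 14 Paneth genes and all 26 enteroendocrine genes were higher in organoids. Of the Paneth list 21 genes are in the files, so 7 did not pass background. A gene of such a list passes mainly through the organoids, so its direction is largely set by the filter. Tff3, a goblet trefoil peptide, lay at 250.2 to 351 CPM (median 282) in organoids and 2.09, 0.612 and 0.335 CPM in m-ICc12 (log2 FC 8.7, adjusted p = 2.84e-13). Agr2, which folds mucins, lay at 111 to 225 CPM (median 152) and 1.04, 0.319 and 0.0479 CPM (log2 FC 9.02, adjusted p = 4.50e-12), and the gel mucin Muc2 at 37.6 to 171 CPM (median 80.7) and 0.174, 0.266 and 0.67 CPM (log2 FC 7.86, adjusted p = 1.74e-09). Lyz1, the Paneth lysozyme, lay at 84.2 to 178 CPM (median 127) and 0.522, 0.372 and 0.144 CPM (log2 FC 8.73, adjusted p = 1.93e-12), and Itln1, a lectin, at 70.7 to 287 CPM (median 149) and 0.87, 0.213 and 0.191 CPM (log2 FC 9.04, adjusted p = 1.19e-08). Alpha-defensin and Reg genes have near-identical copies and are uncertain in these counts. The enteroendocrine granule gene Chga lay at 31 to 59.4 CPM (median 44) and 0.174, 0.106 and 0 CPM (log2 FC 9.09, adjusted p = 1.05e-11). Some hormone genes held no count in m-ICc12 and others up to 11 counts in a library. Those without a count included somatostatin (Sst) at 7.17 to 21.3 CPM (median 13.3) in organoids, at least 50.7-fold higher, Pyy, at least 42.8-fold higher, and ghrelin (Ghrl), at least 27.1-fold higher. The median log2 fold changes of 8.5 (goblet), 8.27 (Paneth) and 8.81 (enteroendocrine) became 6.22, 4.58 and 4.74 with genes near 0 in m-ICc12 set at 3 counts per library.

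Tuft genes were the least detected of the lineages. Of the 19 in the files, 10 passed background, of which 6 were higher and 2 lower. The median of 6.29 became 1.78 with 7 genes near 0 in m-ICc12 set at 3 counts. These 7, among them the 6 higher genes, passed only through the organoids, so their direction was set by the filter. The count of higher genes depended on the depth and on the organoids used: it was 2 of 5 after thinning to the smallest library, 3 of 7 with SE organoids alone and 8 of 12 with both libraries of a culture summed. Dclk1, a tuft marker, lay at 0.0898 to 2.31 CPM (median 0.826) in organoids and 0.522, 0.0266 and 0 CPM in m-ICc12 and was not called (log2 FC 3.02, adjusted p = 0.0721), although it was called without m-ICc12 replicate 1 (log2 FC 5.69, adjusted p = 0.0106). Ptgs1, the cyclooxygenase 1 gene, was lower in organoids (0 to 1.17 CPM, median 0.223, against 144, 138 and 133 CPM, log2 FC -8.73, adjusted p = 1.06e-11). In bulk libraries fewer cells of a type and less RNA per cell cannot be told apart.

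Crypt stem cell genes were higher in 16 of 22 cases and lower in 4, with a median of 4.52, or 2.94 with 3 genes set at 3 counts. Lgr5, the R-spondin receptor of crypt base stem cells, lay at 90.1 to 261 CPM (median 166) in organoids and 0.87, 0.346 and 0.479 CPM in m-ICc12 (log2 FC 8.45, adjusted p = 2.28e-10). Smoc2 lay at 482 to 726 CPM (median 558) and 3.48, 1.14 and 0.526 CPM (log2 FC 8.83, adjusted p = 1.27e-12). Rnf43, a membrane ligase that restrains Wnt receptors, lay at 93.6 to 128 CPM (median 109.7) and 0.87, 0.266 and 0.191 CPM (log2 FC 8.49, adjusted p = 4.82e-14), and Axin2, a common Wnt target, at 76.3 to 142 CPM (median 112) and 1.04, 0.479 and 1.34 CPM (log2 FC 7.0, adjusted p = 1.45e-11). Ascl2, a stem cell factor, held no count in m-ICc12 and was at least 35.2-fold higher in organoids (adjusted p = 2.79e-07). Lower in organoids were Prom1 (206 to 312 CPM, median 256, against 791, 731 and 657 CPM, log2 FC -1.47, adjusted p = 3.57e-09), Cd24a (log2 FC -1.14, adjusted p = 2.23e-08) and Bmi1 (52 to 108 CPM, median 70.9, against 190.3, 188 and 188 CPM, log2 FC -1.35, adjusted p = 2.65e-06). Myc and Znrf3 were not called (log2 FC 0.38, adjusted p = 0.0497 and log2 FC -0.19, adjusted p = 0.509).

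Several Wnt ligands were detected mainly in the line. Of 25 Wnt pathway genes tested, 6 were higher (24%) and 11 lower (44%) in organoids, against 31.4% and 28.5% of all genes. Wnt7b lay at 0.0317 to 0.558 CPM (median 0.0796) in organoids and 194, 162 and 171 CPM in m-ICc12 (log2 FC -10.12, adjusted p = 1.79e-13), and Wnt9a at 0 to 0.657 CPM (median 0.0279) and 17.4, 22.2 and 22 CPM (log2 FC -7.68, adjusted p = 8.78e-07). Wnt4 was listed at 0 to 0.0749 CPM (median 0) and 7.31, 7.0 and 7.51 CPM (adjusted p = 4.19e-07). Beta-catenin (Ctnnb1) was not called (log2 FC 0.21, adjusted p = 0.0291), nor was the co-receptor gene Lrp6 (log2 FC -0.46, adjusted p = 0.00765). The list's median of -0.46 changed sign under some alternatives.

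Notch genes were higher in 11 of 19 cases and lower in 4. The ligand Dll1 lay at 17.8 to 32.6 CPM (median 25.7) in organoids and 0.174, 1.25 and 1.87 CPM in m-ICc12 (log2 FC 4.27, adjusted p = 5.92e-08), and the feedback gene Nrarp at 24.3 to 50.3 CPM (median 32.2) and 1.04, 3.01 and 2.39 CPM (log2 FC 3.94, adjusted p = 1.70e-08). Receptor Notch2 (16.9 to 35.6 CPM, median 23.9, against 311, 211 and 218 CPM, log2 FC -3.32, adjusted p = 6.01e-12) and ligand Jag1 (23.3 to 41.9 CPM, median 27.6, against 243, 157 and 155 CPM, log2 FC -2.59, adjusted p = 3.89e-10) were lower in organoids. Rbpj, the DNA-binding partner of Notch, was not called (log2 FC -0.20, adjusted p = 0.271).

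A list of genes best known from kidney tubules and kidney development served as markers of another epithelium. Of 40 in the files 21 passed background, with 16 lower in organoids, 3 higher and a median of -7.92, or -5.84 with 7 genes set at 3 counts. These 7 passed only through m-ICc12, and the 19 that did not pass have no direction, so the count is a description of the genes detected. The median was -5.67 with every gene of at least 1 count, -9.51 with SR organoids alone, -8.51 without GF919 and -7.34 without m-ICc12 replicate 2. Pax8, a renal and thyroid factor, lay at 2.04 to 7.0 CPM (median 4.18) in organoids and 339, 296 and 288 CPM in m-ICc12 (log2 FC -6.08, adjusted p = 7.25e-13). Pax2 lay at 0 to 0.0569 CPM (median 0.0318) and 114, 48 and 66.3 CPM (adjusted p = 7.89e-14). Lrp2, the endocytic receptor megalin, lay at 0 to 0.451 CPM (median 0.0796) and 312, 212 and 248 CPM (log2 FC -11.15, adjusted p = 2.33e-14), and the cilium gene Pkhd1 at 0.0854 to 0.676 CPM (median 0.18) and 494, 269 and 291 CPM (log2 FC -10.68, adjusted p = 9.92e-15). The groups did not overlap for these 4 genes, as was so for 53.4% of all genes tested. The 3 genes higher in organoids were the water channel Aqp1 (425 to 597 CPM, median 535, against 11.7, 6.04 and 7.46 CPM, log2 FC 6.07, adjusted p = 1.49e-13), Osr2 (42.6 to 63.4 CPM, median 47.7, against 7.65, 3.54 and 7.66 CPM, log2 FC 3.06, adjusted p = 1.33e-08) and the receptor Ret (27.8 to 43.2 CPM, median 38, against 0.522, 0.0798 and 0 CPM, adjusted p = 1.33e-10). Slc12a3, the transporter of the distal tubule, was near 0 in both groups (0 to 0.359 CPM, median 0, and 0, 0.346 and 0.479 CPM) and was not called.

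Hox genes, which record position along the body axis, were lower in organoids in 25 of 30 tested and higher in none. The median was -6.83, or -4.09 with 12 genes set at 3 counts. These 12 passed only through m-ICc12 and could only come out lower, so the count is a description of the genes detected, and 9 more of the 39 Hox genes in the files did not pass. Hoxa10 lay at 0 to 0.114 CPM (median 0.0558) in organoids and 59, 48.5 and 54 CPM in m-ICc12 (log2 FC -9.8, adjusted p = 1.17e-13), Hoxc10 at 0 to 0.0902 CPM (median 0) and 75.9, 64.8 and 61 CPM (adjusted p = 2.15e-13) and Hoxa9 at 0 to 0.18 CPM (median 0.0318) and 48.7, 32 and 37.6 CPM (log2 FC -9.53, adjusted p = 5.26e-11). Hoxc9 was at 0 in every organoid library, at least 70.3-fold lower than in m-ICc12 (10.6, 8.49 and 6.51 CPM, adjusted p = 7.82e-06). Genes of the Hoxb cluster were detected in organoids. Hoxb9 lay at 2.04 to 69.8 CPM (median 11.1) in organoids and 62.3, 95.8 and 97.8 CPM in m-ICc12 (log2 FC -2.04, adjusted p = 0.0151), with the highest organoid library inside the m-ICc12 range. Hoxb6 overlapped (0.0837 to 25.3 CPM, median 2.59, and 16.7, 14.9 and 16.2 CPM) and was not called (log2 FC -1.32, adjusted p = 0.251). The summed Hox level ranged from 5.55 CPM in GF919 to 162 CPM in GF917, with 110 CPM in SR908, against 523, 512 and 487 CPM in m-ICc12.

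**Figure D3:**
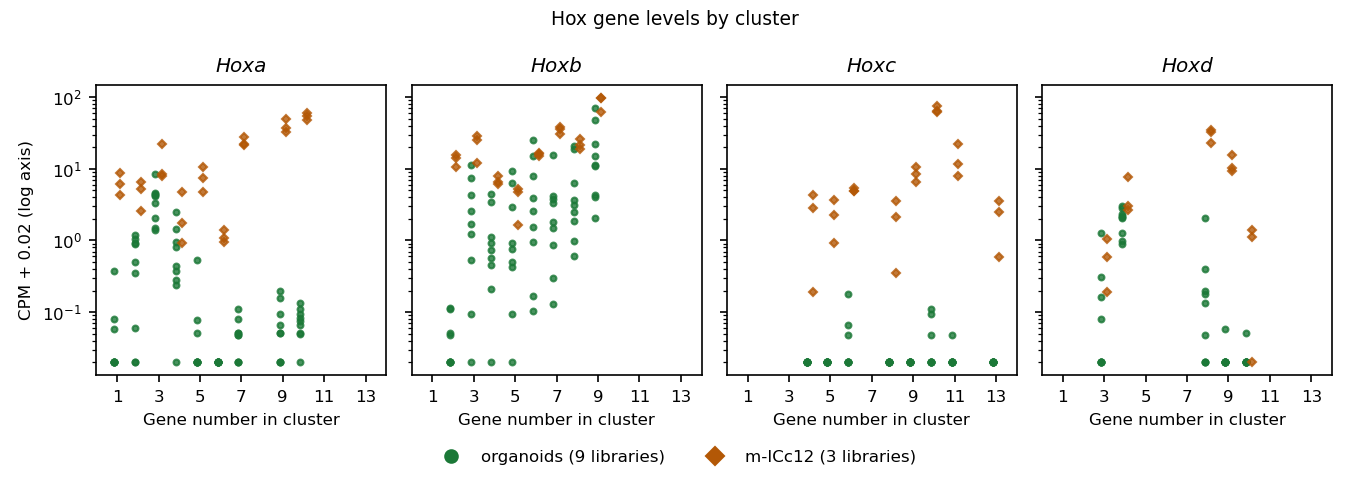
Level of the genes of the Hoxa, Hoxb, Hoxc and Hoxd clusters in each library, as CPM with 0.02 added on a log axis, with the gene number within the cluster along the x axis. Organoid points lie near 0 in the Hoxc cluster and from near 0 up to the m-ICc12 level in the Hoxb cluster.

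Transcription factors best known from other lineages gave 20 of 30 lower and 5 higher in organoids, with a median of -3.18. It was -1.16 with all 27 libraries in the fit, -1.23 with every gene of at least 1 count, -2.25 with GF organoids alone, and -2.54 to -2.27 without SR908, SR910, SE911, SE913 or GF917. Sox11 lay at 0 to 0.299 CPM (median 0) in organoids and 74.8, 35.4 and 50.2 CPM in m-ICc12 (log2 FC -9.53, adjusted p = 3.89e-10), and Eya2 at 0 to 0.187 CPM (median 0.0279) and 25.9, 38.7 and 35.8 CPM (log2 FC -9.66, adjusted p = 2.02e-10). Meis1, a Hox cofactor, lay at 0 to 0.0374 CPM (median 0) and 19.8, 8.51 and 9.91 CPM (adjusted p = 2.07e-09). On the other side, Tbx3 lay at 31.3 to 51.8 CPM (median 45.5) in organoids and 0, 0.0266 and 0 CPM in m-ICc12 (adjusted p = 1.67e-12). Sox4 (log2 FC -0.31, adjusted p = 0.0109) was not called.

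Basement membrane genes were mostly lower in organoids. Of 20 collagen chains 14 were lower and 3 higher in organoids, with a median of -5.5. The median depended on the filter: it was -1.0 over the collagen genes of at least 1 count, -1.77 with all 27 libraries in the fit and -3.95 with both libraries of a culture summed. The higher chains numbered 1 to 5 over the alternatives and the lower ones 12 to 16. The type IV chains Col4a3 (0 to 0.235 CPM, median 0.112, against 278, 201 and 207 CPM, log2 FC -11.15, adjusted p = 2.55e-15) and Col4a4 (0 to 0.318 CPM, median 0.0796, against 259.6, 183 and 222 CPM, log2 FC -11.23, adjusted p = 1.40e-14) form a network typical of kidney basement membrane, and Col18a1 lay at 0.768 to 3.14 CPM (median 1.37) and 1137, 1209.6 and 1239.9 CPM (log2 FC -9.52, adjusted p = 9.92e-15). Summed collagen levels were 18.8 to 54.4 CPM in organoids and 2608, 2533 and 2571 CPM in m-ICc12. Organoids were embedded in Matrigel, which supplies laminin and collagen IV as protein, and the part of that in these levels was not tested. Of 8 laminin chains 6 were lower. Lamb1 lay at 0 to 0.637 CPM (median 0.359) and 538, 494 and 507 CPM (log2 FC -10.28, adjusted p = 1.24e-15), and Lama5 at 3.53 to 10.2 CPM (median 7.12) and 1524, 1044 and 1094 CPM (log2 FC -7.58, adjusted p = 9.99e-14). Lamb3, a chain of epithelial anchoring laminin, was higher in organoids (35.6 to 87.2 CPM, median 45, against 4.18, 9.82 and 13.3 CPM, log2 FC 2.42, adjusted p = 5.96e-06).

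Integrin subunits, the receptors of this matrix, were lower in 10 of 16 cases and higher in 3. Itgb3 lay at 0 to 0.0953 CPM (median 0.0317) in organoids and 75.5, 79.7 and 82.5 CPM in m-ICc12 (adjusted p = 5.67e-14), and Itga5, of the fibronectin receptor, at 0 to 1.17 CPM (median 0.349) and 22.6, 39.9 and 31.8 CPM (log2 FC -6.08, adjusted p = 6.76e-08). Itgb4, of hemidesmosomes, was higher in organoids (99.8 to 156 CPM, median 131, against 18.1, 26 and 23.3 CPM, log2 FC 2.5, adjusted p = 7.15e-10), while its partner Itga6 was not called (log2 FC -0.11, adjusted p = 0.381). Itga2 was higher by a small step (22.8 to 36.5 CPM, median 27, against 13.2, 11.8 and 18 CPM, log2 FC 0.99, adjusted p = 4.44e-04), and this direction reversed in the libraries labelled untreated (-1.36).

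Of 25 Hippo pathway components 15 were lower and 4 higher in organoids. Yap1 lay at 121 to 151 CPM (median 133) in organoids and 82.8, 104 and 103 CPM in m-ICc12, and its log2 fold change of 0.48 missed the limit of 0.5 (adjusted p = 0.00127). It passed without m-ICc12 replicate 2 (0.55) or replicate 3 (0.54). By contrast, Wwtr1 was below 1 CPM in all organoids. The TEAD factors went both ways: Tead1 was lower (37.2 to 70.3 CPM, median 43.3, against 314, 224 and 239 CPM, log2 FC -2.45, adjusted p = 1.22e-09) and Tead3 higher (28.9 to 37.4 CPM, median 31.7, against 25.2, 11.6 and 16.9 CPM, log2 FC 0.87, adjusted p = 0.00149). The angiomotins split too, with Amotl2 lower (3.81 to 9.49 CPM, median 6.13, against 306, 248 and 299 CPM, log2 FC -5.46, adjusted p = 7.19e-13) and Amot higher in organoids (101 to 153 CPM, median 130.2, against 65.1, 39.1 and 43.3 CPM, log2 FC 1.41, adjusted p = 5.52e-07). Nf2 and Mob1a, upstream regulators, were not called (log2 FC -0.05, adjusted p = 0.723 and log2 FC 0.39, adjusted p = 0.00188).

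Known targets of YAP and TAZ were lower in organoids in 17 of 19 cases and higher in 1, with a median of -5.46 (-4.04 with every gene of at least 1 count). Their sum was 198 to 302 CPM in organoids and 3865, 3297 and 3595 CPM in m-ICc12. Ccn2 lay at 0.191 to 1.17 CPM (median 0.516) in organoids and 139, 161 and 150.4 CPM in m-ICc12 (log2 FC -7.92, adjusted p = 8.13e-13), and Ccn1, another matricellular protein gene, at 1.59 to 12.4 CPM (median 3.44) and 263, 243 and 227 CPM (log2 FC -5.81, adjusted p = 1.51e-09). Dock5 was higher in organoids by a small step (log2 FC 0.51, adjusted p = 0.0365), a call lost without any of SE913, GF917, GF918 or m-ICc12 replicates 2 and 3 (0.33 to 0.49), and tissue factor (F3) was not called (log2 FC 0.46, adjusted p = 0.458).

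Promoters of 3 genes of this list are shown because they hold the TEAD motif GGAATG, or CATTCC on the other strand, printed in capitals. Windows and source are as above. Ankrd1 (chr19:36119795-36120094, minus strand), a nuclear ankyrin repeat protein gene, holds it 210 and 123 bases before the start. Axl (chr7:25788684-25788983, minus strand), a receptor tyrosine kinase gene, holds it 233 bases before the start. Amotl2 (chr9:102717554-102717853, plus strand) holds it 65 bases before the start.
Ankrd1: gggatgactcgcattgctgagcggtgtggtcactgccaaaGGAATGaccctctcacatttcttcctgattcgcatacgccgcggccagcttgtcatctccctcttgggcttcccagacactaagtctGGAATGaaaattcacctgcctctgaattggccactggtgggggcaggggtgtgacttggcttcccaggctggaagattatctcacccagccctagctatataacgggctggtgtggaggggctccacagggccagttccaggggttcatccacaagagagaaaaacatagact
Axl: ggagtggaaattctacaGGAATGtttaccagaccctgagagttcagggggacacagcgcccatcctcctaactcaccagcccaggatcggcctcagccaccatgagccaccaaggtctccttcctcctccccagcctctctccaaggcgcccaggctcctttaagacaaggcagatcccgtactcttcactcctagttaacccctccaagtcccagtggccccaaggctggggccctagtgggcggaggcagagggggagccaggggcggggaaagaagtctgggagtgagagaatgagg
Amotl2: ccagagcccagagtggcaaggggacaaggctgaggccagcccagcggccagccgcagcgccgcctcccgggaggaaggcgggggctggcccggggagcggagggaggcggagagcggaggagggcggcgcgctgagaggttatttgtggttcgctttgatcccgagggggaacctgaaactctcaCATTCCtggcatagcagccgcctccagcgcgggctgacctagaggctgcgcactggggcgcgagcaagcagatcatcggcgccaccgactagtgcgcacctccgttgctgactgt

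Ankrd1 lay at 0.0902 to 1.11 CPM (median 0.191) in organoids and 91, 134 and 143 CPM in m-ICc12 (log2 FC -8.59, adjusted p = 2.69e-12), and Axl at 0.222 to 1.76 CPM (median 0.597) and 259.7, 232 and 283 CPM (log2 FC -8.52, adjusted p = 6.56e-13). Of the 14 list members with a promoter 8 held the motif, against 16.6% of all promoters and 14.5% of those of tested genes. The share was 18.4% among genes 8-fold lower and 18.2% among genes 8-fold higher in organoids, and 12.4% among genes not called.

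Stress fibre and focal adhesion genes were lower in 21 of 28 cases. Cald1, an actin regulator of stress fibres, lay at 0.27 to 1.87 CPM (median 0.657) in organoids and 178, 164 and 214 CPM in m-ICc12 (log2 FC -7.68, adjusted p = 1.79e-13), and the bundler Fscn1 at 0 to 1.0 CPM (median 0.516) and 97.2, 88.1 and 87.2 CPM (log2 FC -7.34, adjusted p = 2.52e-11). Vasp (226 to 275 CPM, median 251, against 70.1, 74.5 and 65.6 CPM, log2 FC 1.83, adjusted p = 5.92e-11) and Pdlim1 (102 to 150.2 CPM, median 116, against 6.61, 1.14 and 0.574 CPM, log2 FC 6.0, adjusted p = 6.62e-09) were higher. Actn4 was not called (log2 FC -0.24, adjusted p = 0.0488). Fetal-like and repair genes gave 11 of 15 lower. Among them, Ly6a (Sca-1) lay at 10.1 to 85.9 CPM (median 16.3) in organoids and 285, 297 and 282 CPM in m-ICc12 (log2 FC -3.34, adjusted p = 1.10e-05), Clu at 2.68 to 26.7 CPM (median 10.9) and 48.4, 65.6 and 46.2 CPM (log2 FC -2.1, adjusted p = 1.65e-04) and Anxa1 at 10.8 to 83.8 CPM (median 22.4) and 763, 1142 and 1005 CPM (log2 FC -4.95, adjusted p = 2.98e-08). The 2 higher members were Il1rn (9.15 to 73.6 CPM, median 13.8, against 0, 0.0266 and 0.0957 CPM, adjusted p = 2.66e-06) and the cyclin Ccnd2 (420.2 to 615 CPM, median 587, against 5.22, 1.49 and 1.05 CPM, log2 FC 8.19, adjusted p = 2.59e-12).

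**Figure D4:**
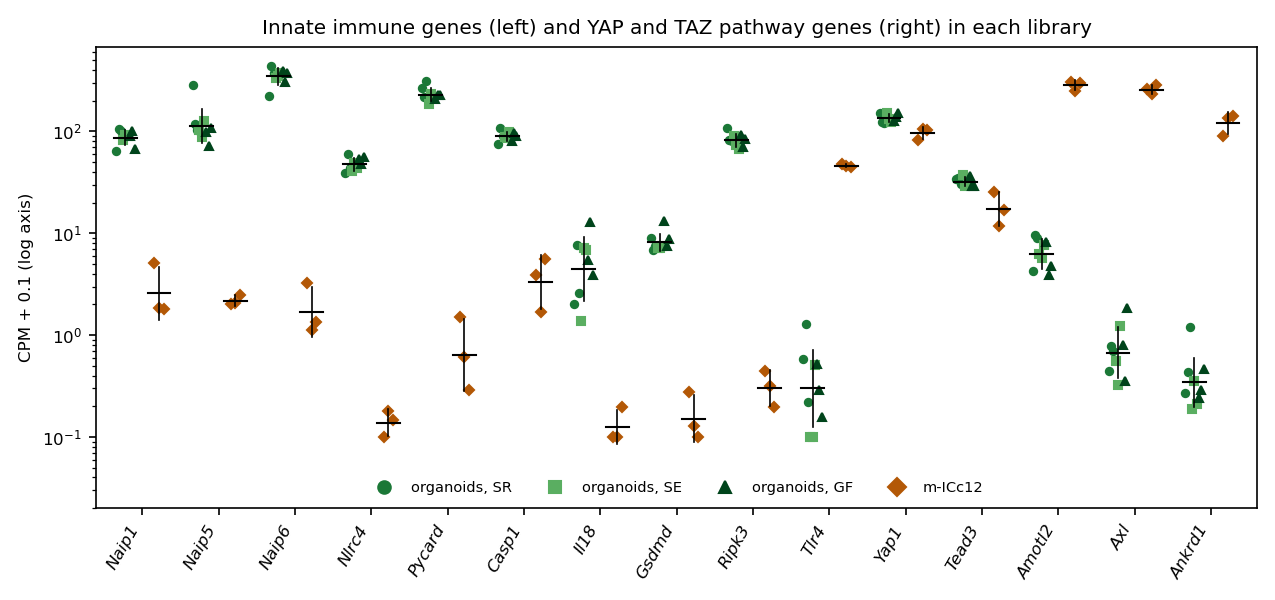
Level of 10 inflammasome, cell death and receptor genes (left) and 5 Hippo pathway genes (right) in each library, as CPM with 0.1 added on a log axis. The 9 organoid libraries lie above the 3 m-ICc12 libraries for the inflammasome genes and below them for Tlr4, Amotl2, Axl and Ankrd1, while Yap1 differs little.

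Inflammasome genes were higher in organoids in 15 of 18 cases and lower in 1, with a median of 5.63, or 4.86 with 6 genes set at 3 counts. Inflammasomes sense bacterial products in the cytosol and activate caspase 1. The sensors Naip1 (64.6 to 105 CPM, median 90, against 5.05, 1.73 and 1.72 CPM, log2 FC 5.23, adjusted p = 1.43e-10), Naip5 (log2 FC 5.85, adjusted p = 5.47e-09) and Naip6 (222 to 439.6 CPM, median 373, against 3.13, 1.01 and 1.24 CPM, log2 FC 7.97, adjusted p = 9.27e-13) are near-identical copies, so the split of reads between them is uncertain. Nlrc4, their shared adaptor, lay at 39 to 59.6 CPM (median 47.7) in organoids and 0, 0.0798 and 0.0479 CPM in m-ICc12 (adjusted p = 2.70e-13). Pycard, the adaptor ASC, lay at 186 to 309.8 CPM (median 228) and 1.39, 0.506 and 0.191 CPM (log2 FC 8.86, adjusted p = 2.77e-13), and Casp1 at 76 to 108 CPM (median 89.7) and 3.83, 1.6 and 5.5 CPM (log2 FC 4.69, adjusted p = 3.63e-10). Nlrp6, of intestinal epithelium, lay at 256 to 354 CPM (median 296) and 10.8, 7.13 and 4.69 CPM (log2 FC 5.41, adjusted p = 1.01e-12). Gsdmd, the pore that caspase 1 opens, lay at 6.71 to 13 CPM (median 7.44) and 0.174, 0.0266 and 0 CPM (adjusted p = 8.95e-08), and the substrate Il18 at 1.26 to 12.8 CPM (median 5.4) and 0, 0 and 0.0957 CPM (adjusted p = 5.13e-05). The DNA sensor Aim2 was at 0 in m-ICc12 and 3.29 to 20.8 CPM (median 7.68) in organoids, at least 42.5-fold higher (adjusted p = 1.63e-06). Nek7, a kinase that licenses NLRP3, was lower (16.8 to 33.2 CPM, median 22.6, against 258, 239 and 244 CPM, log2 FC -3.43, adjusted p = 7.75e-13), and Gsdme overlapped and was not called (log2 FC -0.03, adjusted p = 0.955). The list's sum was 1875 to 2094 CPM in organoids and 543, 548 and 479 CPM in m-ICc12.

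Cell death genes of other kinds gave shares near the background, 10 higher and 8 lower of 27. Ripk3, a necroptosis kinase, was higher in organoids (66.5 to 107 CPM, median 82.5, against 0.348, 0.213 and 0.0957 CPM, log2 FC 8.76, adjusted p = 1.10e-13), while its substrate Mlkl was near 0 in them (0 to 1.31 CPM, median 0.187, against 4.87, 5.96 and 4.12 CPM, log2 FC -3.78, adjusted p = 0.00209). The survival factor Bcl2l1 was lower (28 to 47 CPM, median 35.3, against 190.2, 228 and 229.7 CPM, log2 FC -2.55, adjusted p = 1.49e-11). Mcl1 and Xiap were not called (log2 FC 0.04, adjusted p = 0.767 and log2 FC -0.12, adjusted p = 0.384).

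Receptors of microbes and viruses as a group gave shares near those of all genes, while single members differed. Of 22 Toll-like receptor and signalling genes 8 were higher (36.4%) and 6 lower (27.3%), against 31.4% and 28.5% of all genes. The lipopolysaccharide receptor Tlr4 lay at 0 to 1.2 CPM (median 0.191) in organoids and 47.3, 45.6 and 44.4 CPM in m-ICc12 (log2 FC -7.06, adjusted p = 4.03e-08). The flagellin receptor Tlr5 was low in organoids (1.12 to 4.34 CPM, median 2.28) and had at most 1 count in m-ICc12 (adjusted p = 1.02e-04). Cgas, which senses DNA, lay at 20.3 to 29.3 CPM (median 23.5) and 0, 0.133 and 0.144 CPM (log2 FC 7.51, adjusted p = 1.64e-11), but its partner STING (Tmem173) was near 0 in organoids and present in m-ICc12 (0 to 0.279 CPM, median 0.0599, against 9.05, 6.73 and 7.9 CPM, log2 FC -6.44, adjusted p = 2.49e-06). Ifih1, a sensor of double-stranded RNA, was higher in organoids (16.6 to 24.7 CPM, median 19.6, against 0.174, 0.0532 and 0.0957 CPM, adjusted p = 3.04e-11), and the adaptor Mavs was not called (log2 FC -0.13, adjusted p = 0.34). Interferon response genes gave 8 higher and 5 lower of 22, also near the background. Irf8 lay at 156 to 212 CPM (median 181) and 18.3, 9.37 and 14.6 CPM (log2 FC 3.71, adjusted p = 1.84e-11), Ifit2 at 0 to 1.88 CPM (median 0.716) and 43, 31.3 and 22.3 CPM (log2 FC -5.41, adjusted p = 6.57e-05) and the interferon lambda receptor Ifnlr1 at 5.14 to 16.5 CPM (median 8.98) and 0, 0.0532 and 0.0479 CPM (adjusted p = 5.44e-08).

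Antigen presentation genes were higher in 12 of 15 cases. The class I heavy chains H2-K1 (526 to 647 CPM, median 582, against 13.4, 8.78 and 7.61 CPM, log2 FC 5.93, adjusted p = 3.29e-14) and H2-D1 (188 to 234 CPM, median 205, against 15.3, 10.4 and 9.76 CPM, log2 FC 4.18, adjusted p = 2.46e-13) have close paralogs, and B2m, their light chain, differed less (212 to 322 CPM, median 262, against 147, 107 and 115 CPM, log2 FC 1.09, adjusted p = 1.31e-06). The class II regulator Ciita was near 0 in organoids and low in 2 of the 3 m-ICc12 libraries (4.0, 0 and 2.54 CPM, adjusted p = 3.79e-05). Of 20 chemokine and cytokine genes 11 were higher (55%) and 8 lower (40%), against 31.4% and 28.5% of all genes. The median was 2.81, or 1.32 with 10 genes near 0 in 1 group set at 3 counts, and -0.99 in the libraries labelled untreated. Ccl28, a mucosal chemokine, lay at 53 to 109.8 CPM (median 75.6) in organoids and 0.696, 0.213 and 0.335 CPM in m-ICc12 (log2 FC 7.91, adjusted p = 2.05e-12). Csf1 (0.141 to 1.23 CPM, median 0.37, against 90.8, 92.1 and 102 CPM, log2 FC -7.64, adjusted p = 2.34e-12) and Cxcl1 (0 to 0.61 CPM, median 0.0398, against 27.3, 19.8 and 22.7 CPM, log2 FC -7.6, adjusted p = 6.44e-08) were lower in organoids. The membrane mucin Muc13 was higher in organoids (604 to 723 CPM, median 659, against 3.65, 1.38 and 1.24 CPM, log2 FC 8.62, adjusted p = 2.96e-14), while Muc1 was near 0 in them (5.05, 6.6 and 1.63 CPM in m-ICc12, adjusted p = 2.42e-06).

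Genes of glycolysis and related pathways went both ways. Of 26 glycolysis genes 12 were higher (46.2%) and 7 lower (26.9%) in organoids, against 31.4% and 28.5% of all genes. Pfkp lay at 169 to 234 CPM (median 180.3) in organoids and 1.39, 0.399 and 0.144 CPM in m-ICc12 (log2 FC 8.79, adjusted p = 2.01e-13), and Ldhb at 0.187 to 2.39 CPM (median 0.517) and 290.2, 417 and 324 CPM (log2 FC -8.66, adjusted p = 4.80e-12). Pklr, the liver-type pyruvate kinase, was higher in organoids (315 to 766 CPM, median 399, against 69.2, 48.1 and 39 CPM, log2 FC 3.29, adjusted p = 7.17e-08), while its paralog Pkm was not called (log2 FC 0.34, adjusted p = 0.0213). Genes of gluconeogenesis, fructose and ketone metabolism were higher in 12 of 17 cases. The fructokinase Khk lay at 138 to 453 CPM (median 219) and 17.2, 15 and 8.52 CPM (log2 FC 4.35, adjusted p = 1.89e-07), and Fbp1, of gluconeogenesis, at 4.96 to 106 CPM (median 24.6) and 0.348, 0.266 and 0.0957 CPM (log2 FC 7.34, adjusted p = 1.50e-05). Pck1 was low in both groups (0 to 0.836 CPM, median 0.0558, and 0.696, 4.42 and 1.1 CPM, log2 FC -3.52, adjusted p = 0.0173), a call lost without m-ICc12 replicate 2 (-2.28). Its direction reversed in the libraries labelled untreated (3.49).

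Of 32 genes of cholesterol synthesis and uptake 19 were higher, 3 lower and 10 not called, and 5 were lower without m-ICc12 replicate 1. Npc1l1, the intestinal cholesterol importer, lay at 198 to 369 CPM (median 248) in organoids and 1.91, 0.399 and 0.144 CPM in m-ICc12 (log2 FC 9.14, adjusted p = 1.23e-11), and Abcg5, of the sterol exporter, at 73.2 to 189 CPM (median 107) and 0.348, 0.372 and 0 CPM (log2 FC 8.99, adjusted p = 1.80e-10). The synthesis enzyme Hmgcs1 (log2 FC -0.49, adjusted p = 0.00124) was not called, and Sqle was lower in organoids (206 to 287 CPM, median 232, against 442, 461 and 494 CPM, log2 FC -0.95, adjusted p = 3.92e-07).

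Enzymes that modify drugs and bile acids were mostly higher in organoids. Of 36 tested cytochrome P450 genes 27 were higher and 5 lower in organoids, with a median of 7.55, or 5.83 with 11 genes set at 3 counts. With every gene of at least 1 count the median was 4.08, and without m-ICc12 replicate 2 the lower genes numbered 3. Cyp3a11 lay at 103 to 1211 CPM (median 332) in organoids and 4.52, 1.36 and 1.77 CPM in m-ICc12 (log2 FC 7.91, adjusted p = 2.44e-06), and Cyp2b10 at 75.6 to 629.5 CPM (median 179) and 2.78, 0.825 and 0.574 CPM (log2 FC 8.17, adjusted p = 1.84e-06). The family's sum ranged from 2371 CPM in GF919 to 7012 CPM in GF918, against 168, 172 and 146 CPM in m-ICc12. Cyp4a12b ran the other way (0 to 0.0374 CPM, median 0, against 26.8, 20.7 and 16.6 CPM, adjusted p = 9.36e-11), with a near-identical copy beside it. The xenobiotic receptors Nr1i2 (53.8 to 70.7 CPM, median 66.2, against 0.696, 0.612 and 0.287 CPM, log2 FC 6.99, adjusted p = 1.19e-13) and Nr1i3 (14.4 to 48.7 CPM, median 26.6, against 0.174, 0.0532 and 0.144 CPM, adjusted p = 1.53e-09) were higher too. Of 19 glucuronosyltransferase and sulfotransferase genes 17 were higher, among them Ugt2b34 (449 to 669 CPM, median 559.9, against 8.18, 3.41 and 1.53 CPM, log2 FC 7.28, adjusted p = 2.49e-11), and the 2 lower ones were Sult1d1 (48.1 to 147 CPM, median 79.3, against 1209.8, 1586 and 1297 CPM, log2 FC -3.89, adjusted p = 8.96e-10) and Sult1c2 (log2 FC -3.35, adjusted p = 5.89e-08). The bile acid receptor Nr1h4 was lower in organoids (11.8 to 28.3 CPM, median 24.3, against 60.4, 49 and 48.2 CPM, log2 FC -1.27, adjusted p = 2.45e-04), and Hmox1, heme oxygenase 1, lay at 0.74 to 8.02 CPM (median 2.63) and 30.1, 78.8 and 53.5 CPM (log2 FC -3.83, adjusted p = 1.73e-06).

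Glucocorticoid response genes were lower in 10 of 15 cases and higher in 5. Fkbp5 lay at 44.1 to 82.4 CPM (median 62) in organoids and 604, 554 and 520.4 CPM in m-ICc12 (log2 FC -3.17, adjusted p = 3.56e-12), Tsc22d3 (GILZ) at 35.9 to 70.1 CPM (median 49.5) and 188, 230 and 202 CPM (log2 FC -2.06, adjusted p = 5.84e-09) and Zbtb16 at 0 to 0.603 CPM (median 0) and 41.4, 28.5 and 27.6 CPM (log2 FC -8.48, adjusted p = 1.05e-07). The 2 media differ in a listed glucocorticoid, since dexamethasone is an ingredient of the m-ICc12 medium, and its part in these genes was not tested. The receptor gene Nr3c1 was higher in organoids (107 to 170 CPM, median 135, against 81.8, 58.5 and 81.4 CPM, log2 FC 0.91, adjusted p = 4.88e-05), as was metallothionein 2 (Mt2, 1154 to 2233 CPM, median 1863, against 489.7, 432 and 514 CPM, log2 FC 1.87, adjusted p = 2.62e-07).

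Most ribosomal and respiratory chain genes were higher in organoids. Of 80 cytosolic ribosomal protein genes 76 were higher in organoids and none lower, with a median of 1.33, so that the sum was 74550 to 98480 CPM in organoids and 25020, 42080 and 35790 CPM in m-ICc12. Rpl29 lay at 623 to 873 CPM (median 749) and 63.8, 106 and 105 CPM (log2 FC 3.0, adjusted p = 6.65e-11). Of 78 oxidative phosphorylation subunits 58 were higher and 1, Ndufb8 (112 to 153 CPM, median 133, against 218, 348 and 271 CPM), lower (log2 FC -1.09, adjusted p = 4.99e-07), with a median of 0.96. Sdhb lay at 173 to 197 CPM (median 182) and 48.9, 75.5 and 63.5 CPM (log2 FC 1.54, adjusted p = 4.67e-09), and the ATP synthase subunit Atp5b was not called (log2 FC 0.18, adjusted p = 0.119). For both families m-ICc12 replicate 1, the library with 13.5% of its counts on Lars2, had the lowest sum.

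Most proliferation genes were not called. Of 44 DNA replication and mitosis genes 31 were not called, 7 were higher and 6 lower, below the shares of all genes in both directions, and the median was 0.03. Top2a lay at 434 to 586 CPM (median 516) in organoids and 458, 569.9 and 609.8 CPM in m-ICc12 (log2 FC -0.09, adjusted p = 0.489), and Pcna was not called (log2 FC 0.07, adjusted p = 0.683). Rrm2, of ribonucleotide reductase, was lower in organoids (104 to 152 CPM, median 128, against 292, 449.8 and 407 CPM, log2 FC -1.6, adjusted p = 3.02e-09), and E2f2 higher (89.5 to 139 CPM, median 124, against 15, 6.92 and 6.56 CPM, log2 FC 3.75, adjusted p = 6.03e-10). Of the D cyclins, Ccnd2 was higher, as given above, and Ccnd1 lower (153 to 253 CPM, median 188, against 594, 698 and 757 CPM, log2 FC -1.83, adjusted p = 1.64e-09). Of 24 p53 targets 13 were lower in organoids and 1 higher. Gdf15 lay at 3.06 to 11.3 CPM (median 6.46) and 196, 115 and 167 CPM (log2 FC -4.47, adjusted p = 2.61e-10), Mdm2 at 38.6 to 63.4 CPM (median 47.1) and 195, 189 and 210.5 CPM (log2 FC -1.96, adjusted p = 1.03e-09) and Cdkn1a at 121 to 165 CPM (median 141) and 322, 374 and 417 CPM (log2 FC -1.41, adjusted p = 2.88e-09), while Trp53 itself was not called (log2 FC 0.18, adjusted p = 0.197).

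Growth factor and receptor genes of the EGF, FGF, TGF-beta and BMP families were lower in 24 of 42 cases and higher in 11. Neuregulin 1 (Nrg1) lay at 0 to 0.0469 CPM (median 0) in organoids and 62.5, 44.8 and 47.5 CPM in m-ICc12 (adjusted p = 1.71e-13). Egfr was lower in organoids (14.5 to 27.2 CPM, median 24, against 216, 183 and 213 CPM, log2 FC -3.23, adjusted p = 2.30e-11), while its ligands epiregulin (Ereg, 6.43 to 29.3 CPM, median 14.2, against 0.174, 0.0532 and 0 CPM, adjusted p = 3.90e-07) and amphiregulin (Areg, 17.3 to 65.9 CPM, median 30.7, against 0.348, 0.958 and 1.44 CPM, log2 FC 5.01, adjusted p = 4.08e-07) were higher. Erbb2 was not called (log2 FC -0.09, adjusted p = 0.568). Fgf15, the ileal hormone, was low in organoids (0.809 to 19.1 CPM, median 3.74) and had at most 1 count in m-ICc12 (adjusted p = 1.51e-04).

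Solute carriers, the membrane transporters of sugars, amino acids and ions, gave 115 of 252 higher and 65 lower and a median of 0.41. Their shares were 45.6% and 25.8%, against 31.4% and 28.5% of all genes. Slc6a18, a neutral amino acid transporter of kidney, lay at 0 to 0.222 CPM (median 0.0558) in organoids and 107, 185 and 93.6 CPM in m-ICc12 (log2 FC -10.88, adjusted p = 2.55e-13), and Slc17a1 at 0 to 0.0318 CPM (median 0) and 8.87, 22.3 and 9.24 CPM (adjusted p = 9.58e-10). The lactate exporter Slc16a3 was higher in organoids (32.4 to 88.6 CPM, median 58.7, against 0.174, 0.133 and 0.0479 CPM, log2 FC 8.96, adjusted p = 8.22e-10), and the taurine carrier Slc6a6 was not called (log2 FC -0.12, adjusted p = 0.388).

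Imprinted genes, expressed from 1 parental copy, gave 5 higher and 5 lower of 13. That was 38.5% each way, against 31.4% higher and 28.5% lower of all genes. For 4 of the 13, no library of 1 group held more than 3 counts. Peg3 lay at 0.228 to 3.68 CPM (median 1.88) in organoids and 1129.9, 846 and 1033 CPM in m-ICc12 (log2 FC -9.11, adjusted p = 2.03e-12), and Usp29 beside it was at 0 in organoids, at least 60.7-fold lower than in m-ICc12 (7.13, 8.06 and 6.89 CPM, adjusted p = 1.08e-05). Plagl1 lay at 17.9 to 37.9 CPM (median 29.8) and 0, 0.106 and 0 CPM (log2 FC 8.79, adjusted p = 2.90e-10), and Igf2 at 9.2 to 25 CPM (median 13.8) and 0.174, 0.0532 and 0 CPM (adjusted p = 1.07e-08). By chromosome the median log2 fold change ran from -0.43 on chromosome 15, where 46.3% of genes were lower, to 0.46 on chromosome 4, where 43.9% were higher. The 5 tested genes of the Y chromosome were all higher in organoids. Eif2s3y lay at 27 to 91.6 CPM (median 77.4) and 9.05, 4.92 and 6.89 CPM (log2 FC 3.44, adjusted p = 9.50e-08), and Kdm5d at 37.7 to 52.5 CPM (median 41.9) and 1.22, 8.12 and 5.17 CPM (log2 FC 3.05, adjusted p = 2.85e-07).

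The genes that varied most among organoids included digestive and drug-metabolising enzymes. Among genes of at least 100 CPM, the largest coefficients of variation over the 9 libraries belonged to Lct (85.4%), Cyp3a11 (79.6%) and Cyp2b10 (76.3%), and Olfm4, a crypt gene, reached 70.9%. The median over all genes was 16.7%. Few genes differed by facility: 6 of 12507 genes differed among SR, SE and GF at an adjusted p below 0.05 (351 at an unadjusted p below 0.05). The 6 were Wdfy1, Mid1, Bnip3l, Nnt, Ide and mt-Nd3, named for this result after their values were seen. Facility and litter cannot be told apart here, because the mice of a facility were cohoused littermates. Mid1 lay at 57.4 to 102 CPM in GF organoids and 2.69 to 9.83 CPM in the others, and 16, 13.7 and 11.4 CPM in m-ICc12. Wdfy1 lay at 54.4 to 64.6 CPM in GF and 11.4 to 18.4 CPM in the others, so that its log2 fold change from m-ICc12 was -1.93 for SR, -2.12 for SE and 0.01 for GF. Against m-ICc12 the organoids of SR, SE and GF alone gave 6781, 6691 and 6527 of the 7682 calls in the same direction.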

How the data were processed

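RNA was measured in 27 libraries, of which the 9 organoid and 3 m-ICc12 libraries labelled TNF-treated were compared. PolyA-selected RNA was made into TruSeq v2 libraries, which the labels call stranded, and sequenced single-end on an Illumina HiSeq. The authors trimmed reads with Trimmomatic, aligned them with STAR (2.5.1 in the methods, 2.5.4b in the processing notes) to GRCm38 and counted reads per gene of Ensembl 91, so the deposited values are raw counts per gene. The methods name GenomicRanges and the notes featureCounts as the counter. Strand use and the treatment of reads that map to several genes are not given in the sources used here. Gene symbols came from GENCODE vM21, which matched 22291 of 22524 identifiers.

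Genes that reached 10 counts in 50% or more of the organoid or of the m-ICc12 libraries were tested with edgeR 4.0.16 (R 4.3.3), using TMM scaling and the quasi-likelihood F-test without covariates. A call combined a Benjamini-Hochberg adjusted p below 0.05 with an absolute log2 fold change of 0.5 or more. CPM are counts divided by the TMM-scaled library size. A floor of 3 counts per library served as the bound for groups at 0, and covers counting error only. The m-ICc12 replicates are cultures of 1 line, so p-values there measure the spread between cultures. The test was checked on simulated data with far fewer changed genes than here, each changed by less than 8-fold, so the check does not cover this setting. Facilities were compared within the 9 organoid libraries. Alternatives were DESeq2 1.42.0, no filter, total scaling, thinning to the smallest library, each facility alone, the libraries labelled untreated, both libraries of a culture summed, all 27 libraries in 1 fit, and leaving out each library.

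The libraries compared, the gene lists and the markers were chosen with earlier results of these data known. Named genes were the 5 markers, up to 10 genes of highest mean CPM among those 8-fold apart in each direction, and in each list up to 5 called members of largest fold change with a mean of at least 5 CPM, up to 3 called against the majority and up to 2 not called. List members named beyond this rule, and genes named for facility, were chosen after their values had been seen. Some genes that the rule names are not reported here. Promoter sequences came from RefSeq (GRCm38.p6), which matched 9989 of the 12826 tested genes. A total of 13 listed symbols, among them Trop2, Pla2g2a, Mx2, Cebpd, Muc16, Muc17 and 5 imprinted RNAs, were not analysed here.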

Additional observations from a re-analysis of the deposited data

Results flagged for a closer look

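Over the 9 organoid libraries, the highest or lowest library lay apart from the others by Dixon's criterion (on log2 of CPM with 0.5 added) for 10 of the 195 named genes tested, where chance flags about 1 in 20. SR908 was the highest library for Cldn7 (654 CPM), Naip5 (286 CPM), Pdlim1 (150 CPM) and Pyy (18.9 CPM). GF917 was the highest for Gsdmd (13 CPM) and the lowest for Pigr (1.62e+03 CPM). GF918 was the highest for Cgas (29.3 CPM). GF919 was the lowest for Eif2s3y (27 CPM) and Tgfbi (1.28 CPM), and SE911 the lowest for Maf (1.08 CPM). Each of these libraries lay on the same side of m-ICc12 as the other organoids.

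Facility of origin gave 6 genes with a difference among SR, SE and GF organoids in edgeR's quasi-likelihood test over 12507 genes. The adjusted p was 0.00024 for Mid1, 0.00031 for Wdfy1, 0.00031 for Ide, 0.0053 for Nnt, 0.024 for Bnip3l and 0.024 for mt-Nd3. Ide was highest in SE organoids (293 to 330.2 CPM, against 124 to 173 CPM in SR and GF), and Bnip3l in SR organoids (130 to 196 CPM, against 61.4 to 87.9 CPM). Nnt was highest in GF organoids (205 to 270.3 CPM, against 73.9 to 119.9 CPM), and mt-Nd3 was at 0 in the 3 GF libraries and at 2.08 to 11.4 CPM in the other 6. Of the 6 genes 5 were also found among the organoid libraries labelled untreated, which come from the same mice. Since the mice of a facility were cohoused littermates, facility and litter cannot be told apart.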

How the results depend on the processing

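The 4 counts of called genes stayed within 1.5 times their values under every alternative run: 3461 to 4202 higher, 3251 to 3952 lower, 1237 to 1753 at least 8-fold higher and 1114 to 1550 at least 8-fold lower. Leaving out 1 library gave 3833 to 4135, 3510 to 3674, 1466 to 1664 and 1214 to 1383. Of the 7682 calls, DESeq2 shared 7475, the libraries labelled untreated 6395 with 2 in the opposite direction, thinning to the smallest library 7057, and the summed cultures 7050 with 1 opposite. No paired analysis was possible because organoid and m-ICc12 cultures share no culture number. Among 244 named genes, 225 kept their side of the threshold in all 24 settings, and in the same direction where they were called. A further change was not counted: 21 named genes changed sign in a setting while called neither there nor in the reported fit. Log2 fold changes that reversed with a call in at least 1 of the fits were those of Itga2 (-1.36), Pck1 (3.49), Col1a1 (0.73) and Lars2 (0.77) in the libraries labelled untreated, Itga2 (-0.66) and Pck1 (1.47) with cultures summed, Mid1 (-1.32) with SR organoids alone and mt-Nd3 (-7.21) with GF organoids alone. The cause was not tested. The median kept its sign in all settings for 44 of 51 lists and changed it for caspases, interferon, DNA replication, Wnt, chemokine, imprinted and keratin genes. Counts within lists that moved by over 1.5 times, beside those given above, included interferon genes higher with GF organoids alone (4) and lower after thinning (3). They also included DNA replication and mitosis genes higher in the libraries labelled untreated (3) and with cultures summed (4), and integrins higher in the libraries labelled untreated (1). Inflammasome genes lower rose from 1 to 3 with every gene of at least 1 count. Laminin chains higher fell from 2 to 1 after thinning, and antigen presentation genes lower from 2 to 1 with GF organoids alone. Cytochrome P450 genes lower fell from 5 to 3 with SE or GF organoids alone. The 6071103 counts of m-ICc12 replicate 1 limit genes near 0 there, where 1 count is worth more than in the deeper libraries.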
